A study of Mus musculus with 9 samples.

Results

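The genes that build cholesterol and fatty acids were followed in J774A.1, a mouse macrophage line derived from a tumour of a BALB/c mouse. The set was 34 genes chosen by name: the enzymes that turn acetyl-CoA into mevalonate and isoprenoid units, those that turn squalene into cholesterol, the SREBP transcription factors with the proteins that control them, and the enzymes of fatty acid synthesis and desaturation. Of these, 33 had a row in the table of 26157 genes, and Elovl6 was not analysed here. By role, 8 belonged to the mevalonate pathway, 11 to the steps from squalene to cholesterol, 6 to SREBP control and sterol transport, and 8 to fatty acid synthesis.

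Poly-A RNA was measured in 9 libraries, 3 in each of 3 groups. Q11 cells received Q11, a compound that the title of the series calls a CYP2E1 inhibitor, at the same time as the cytokines IL-4 and IL-13. M2 cells were given the same cytokines, IL-4 and IL-13 (10 ng/mL), the treatment used to bring macrophages into the alternatively activated (M2) state. Ctrl cells were grown under normal conditions, while neither the dose of Q11 nor the length of treatment is given in the sources used here. All groups are the same cell line, no genotype differs between them, and the labels do not say whether the libraries of a group came from separate cultures. The p-values therefore measure the spread between these samples, which may be technical.

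The reads recovered from the deposited TPM (a level per gene length, scaled to the same total in each library) came to between 15809432 and 17089171 in 8 libraries. Q11 replicate 2 held 32180914, and its reads were below those of Q11 replicate 3 in 10 of 19235 genes, while 1928 to 2406 genes were below each of the other 7 libraries. These Q11 libraries share reads and are not independent. The main Q11 tests and counts are therefore given also with the reads of Q11 replicate 3 taken out of Q11 replicate 2, called "shared reads separated", which leaves 15330205 reads there. The macrophage markers were present in every library, with Cd68 at 2429.9 to 2653 TPM and Csf1r at 328 to 385 TPM. Summed TPM of 3 fibroblast markers was at most 1.41, of 3 endothelial markers at most 2.92 and of 3 B cell markers at most 1.52. Summed TPM of the 7 macrophage markers was 6791 to 6846 in Q11 libraries and 6481 to 7018 in M2 libraries, against 9921 to 10297 in Ctrl libraries, with Lyz2 spanning 3343 to 7140 TPM, and the part of this difference in the results was not tested.

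Animal cells make cholesterol from acetyl-CoA through mevalonate, isoprenoid diphosphates, squalene and lanosterol. When sterols are plentiful, Insig proteins hold Scap and the SREBP precursors in the endoplasmic reticulum. When sterols fall, Scap carries the precursors to the Golgi, where they are cut, and the released domains enter the nucleus and bind sterol regulatory elements, usually beside sites for NF-Y and Sp1. Srebf2 mainly drives sterol genes and the short form of Srebf1 mainly fatty acid genes. Macrophages keep this system in balance with the cholesterol they take up.

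Promoter sequences were searched for exact letter matches to a sterol regulatory element core and to other short sites, among them the NF-Y box. RefSeq windows of mouse build GRCm38.p6, each running from 250 bases before to 50 bases after a start site, were matched by symbol for 27 of the 34 genes, in 35 windows. Hmgcs1 is shown because it was the only gene of the set with the exact core of a sterol regulatory element, and Mvd, Mvk, Lss, Nsdhl and Fasn as examples of genes that were higher in M2 cells and carry NF-Y boxes, as Acly and Dhcr7 also do. Capitals mark the sterol regulatory element core (TCACNCCAC) and the NF-Y box (CCAAT), on either strand, and each sequence runs 5′ to 3′ along the gene's strand.
Hmgcs1 (chr13:119690101-119690400, plus strand): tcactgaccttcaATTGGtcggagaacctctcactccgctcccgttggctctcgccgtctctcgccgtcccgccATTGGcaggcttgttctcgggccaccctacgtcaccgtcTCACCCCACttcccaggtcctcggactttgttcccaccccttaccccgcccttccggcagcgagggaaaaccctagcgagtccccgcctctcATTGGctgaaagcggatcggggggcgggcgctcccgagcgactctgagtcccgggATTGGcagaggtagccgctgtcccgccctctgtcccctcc
Mvd (chr8:122443373-122443672, minus strand): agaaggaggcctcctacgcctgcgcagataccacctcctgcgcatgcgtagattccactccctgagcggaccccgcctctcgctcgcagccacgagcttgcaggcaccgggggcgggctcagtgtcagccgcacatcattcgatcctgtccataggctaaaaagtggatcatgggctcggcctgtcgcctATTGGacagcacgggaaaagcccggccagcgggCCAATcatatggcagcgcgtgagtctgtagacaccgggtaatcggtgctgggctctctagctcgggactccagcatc
Mvk (chr5:114444019-114444318, plus strand): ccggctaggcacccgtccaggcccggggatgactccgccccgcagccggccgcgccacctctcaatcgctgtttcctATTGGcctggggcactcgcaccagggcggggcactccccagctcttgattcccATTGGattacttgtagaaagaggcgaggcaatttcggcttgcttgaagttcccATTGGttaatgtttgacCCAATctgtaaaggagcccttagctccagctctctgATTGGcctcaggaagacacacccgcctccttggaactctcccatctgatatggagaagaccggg
Lss (chr10:76531355-76531654, plus strand): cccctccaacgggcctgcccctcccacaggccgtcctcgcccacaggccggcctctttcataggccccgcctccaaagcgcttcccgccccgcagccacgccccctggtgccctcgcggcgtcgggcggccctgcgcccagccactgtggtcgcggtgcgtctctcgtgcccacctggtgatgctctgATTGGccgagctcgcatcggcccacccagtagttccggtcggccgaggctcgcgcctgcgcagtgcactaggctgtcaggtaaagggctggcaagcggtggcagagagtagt
Nsdhl (chrX:72918271-72918570, plus strand): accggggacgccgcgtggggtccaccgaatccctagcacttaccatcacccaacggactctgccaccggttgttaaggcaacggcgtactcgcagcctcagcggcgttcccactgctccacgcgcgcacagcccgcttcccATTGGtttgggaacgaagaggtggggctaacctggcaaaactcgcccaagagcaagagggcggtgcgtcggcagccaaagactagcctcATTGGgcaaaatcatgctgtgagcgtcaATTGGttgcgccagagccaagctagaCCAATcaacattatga
Fasn (chr11:120824498-120824797, minus strand): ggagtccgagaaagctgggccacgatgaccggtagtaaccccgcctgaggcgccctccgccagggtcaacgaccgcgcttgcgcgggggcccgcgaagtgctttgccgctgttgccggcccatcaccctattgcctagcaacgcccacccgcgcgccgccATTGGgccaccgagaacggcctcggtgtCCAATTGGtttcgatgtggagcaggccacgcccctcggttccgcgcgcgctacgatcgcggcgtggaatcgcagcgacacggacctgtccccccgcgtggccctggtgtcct

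In Hmgcs1, which encodes the cytosolic HMG-CoA synthase, the core lies at bases -137 to -129 from the start site, with 4 NF-Y boxes in the window. Mvk carries 5 NF-Y boxes, Nsdhl 4, Fasn 3, Mvd 2 and Lss 1. The Fasn boxes at -62 to -58 and -59 to -55 overlap each other on opposite strands, which was the only overlap between sites in the windows of the set. Over the set, 22 of 27 genes (81.5%) had an NF-Y box in a window, as did 41.1% of all 27025 genes with windows and 43.3% of the 9310 tested genes with windows. The GC box bound by Sp1 (GGGCGG) was also present in 22 of 27 genes (81.5%), against 38.2% of all genes and 68% of tested genes. The E-box (CACGTG) was present in 5 (18.5%), against 8.09% of all genes and 12% of tested genes.

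The sterol regulatory element core was present in 1 gene (3.7%), against 1.44% of all genes and 1.33% of tested genes. The spaced palindrome bound by STAT6, the factor that IL-4 and IL-13 activate (TTC and GAA with 4 bases between them), was present in 2 genes, Ggps1 and Srebf1 (7.41%), against 8.01% of all genes and 6.67% of tested genes. Among genes with both a window and a row, the NF-Y box was in 7 of the 8 that rose in M2 cells and in 15 of the 18 others, and the GC box gave the same counts. The sterol regulatory element core was in 0 of those 8 and in 1 of the 18 others. These are exact letter matches and describe the windows only.

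**Figure D1:**
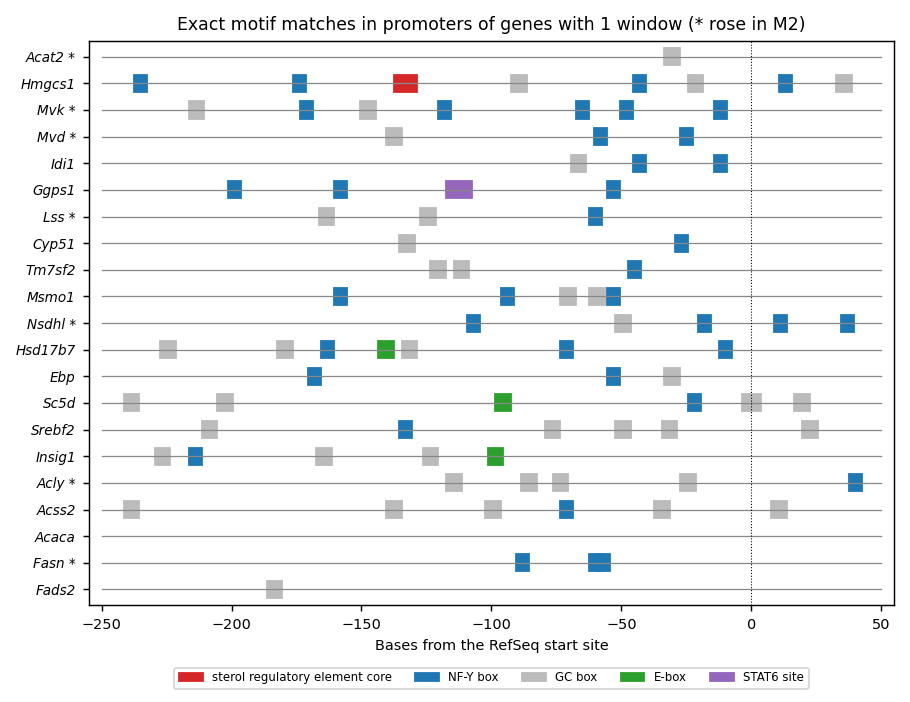
Exact motif matches in the promoters of the 21 genes with 1 window and a row, drawn by distance in bases from the RefSeq start site (x axis, the dotted line is the start site), with genes in pathway order down the page. NF-Y boxes and GC boxes are spread over most genes, the sterol regulatory element core is in Hmgcs1, and the 7 genes with a star rose in M2 cells.

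All 33 genes passed the filter of at least 1 TPM in at least 3 libraries, and their mean levels reached down to 8.63 TPM. The lowest read number behind any value was 184 reads, for Fdps in Ctrl replicate 1. Levels in TPM ran from Acss2 (7.70 to 9.51 TPM over the 9 libraries), which turns acetate into acetyl-CoA, to Scd2 (1713 to 1899 TPM with the shared reads separated, and 1713 to 1892 TPM as deposited), a stearoyl-CoA desaturase. Within each gene the libraries lay close together. The highest library stood above the lowest by 1.08 times in Fads1, by 1.46 times in Ggps1 and by a median of 1.16 times over the set.

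**Figure D2:**
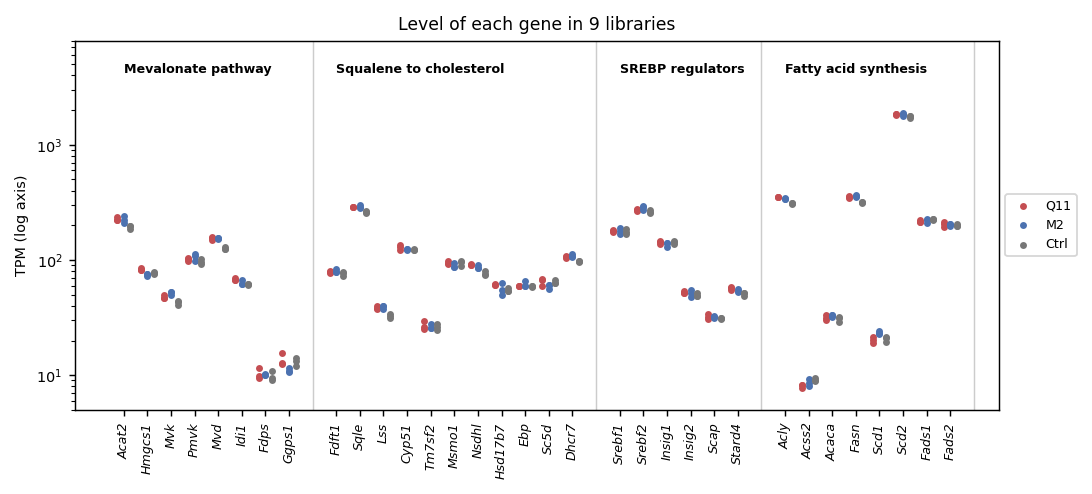
TPM of each of the 33 genes (y axis, log scale) in the 9 libraries, with Q11, M2 and Ctrl libraries side by side and genes in pathway order along the x axis. Levels span Acss2 at 7.70 to 9.51 TPM and Scd2 at 1713 to 1892 TPM, while the libraries of a gene differ by at most 1.46 times.

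The question of the M2 against Ctrl comparison was what IL-4 and IL-13 do to this program. In M2 cells 9 of the 33 genes rose, all of them enzymes, by 1.09 to 1.23 times, and none fell by limma. They were Mvd, Mvk and Acat2 of the mevalonate pathway, Lss, Nsdhl, Dhcr7 and Sqle of the steps from squalene to cholesterol, and Fasn and Acly of fatty acid synthesis. None of the 6 genes of SREBP control and sterol transport passed the threshold (0%, against 6.88% of all genes risen and 5.75% fallen). In 3 of these 6 every M2 library was above every Ctrl library (50%, against 14.5% of all genes). At an unadjusted p under 0.05 by limma there were 13 of the 33 genes, beside 3709 of all 14207 genes tested. Of these 13, only Ggps1 was lower, and only Srebf2, which was higher, was a gene of SREBP control. Limma-voom on recovered reads called 10 genes of the set risen and 0 fallen, beside 2257 genes called in either direction over all. A gene was called changed at an adjusted p under 0.05 by limma on log2(TPM + 1), a scale on which fold changes slightly understate low genes.

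The share of the set that rose was 27.3%, against 6.88% of all 14207 genes tested, and 0 fell, against 5.75% of all genes. The set was chosen with earlier results of these data known. These shares, and those of Q11 against Ctrl below, therefore only describe the set. Of the genes that averaged 8 TPM or more, as all of the set did, 9.87% rose and 7.9% fell. The same 9 rose with the shared reads separated, where 4.93% of all genes rose. The median log2 difference was 0.06 over the set and -0.0026 over all genes, and 26 of the 33 genes lay above 0. Every M2 library was above every Ctrl library in 16 genes (48.5%, against 14.5% of all genes) and below in 3 (9.09%, against 13.9%), which were Ggps1, Hmgcs1 and Sc5d. Summed TPM of the 33 genes was 5366 to 5569 in M2 libraries and 5132 to 5230.3 in Ctrl libraries.

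In the mevalonate pathway 3 of 8 genes rose, with a median log2 difference of 0.09. Mvd (ENSMUSG00000006517, chr8:122433601-122443422, minus strand), the decarboxylase that makes isopentenyl diphosphate, had 156, 153 and 156 TPM in M2 libraries, against 123, 129 and 126 TPM in Ctrl libraries. Its log2 difference was 0.30 (95% interval 0.22 to 0.37), a fold change of 1.23, with a limma adjusted p of 0.00066 (0.0038 when the shared reads were separated). The groups did not overlap, and this was the largest difference of the set.

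Mvk (ENSMUSG00000041939, chr5:114444269-114460591, plus strand), mevalonate kinase, had 53.2, 49.6 and 52.7 TPM in M2 libraries, against 44.1, 40.9 and 43.0 TPM in Ctrl libraries. On the log2 scale the difference was 0.27 (0.17 to 0.38), with a limma adjusted p of 0.00575 (0.0317 with the shared reads separated). All M2 values were above all Ctrl values. Acat2 (ENSMUSG00000023832, chr17:12942890-12960747, minus strand), the cytosolic thiolase that joins acetyl-CoA units, had 220.3, 211 and 241 TPM in M2 libraries, against 199, 198 and 187 TPM in Ctrl libraries. The log2 difference was 0.20 (0.08 to 0.32), with a limma adjusted p of 0.0358 (0.0450 with the shared reads separated).

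The groups of Acat2 did not overlap, but its call held in only 8 of 20 alternative settings. It was lost without any of the 3 Ctrl libraries, without M2 replicate 1 or 3 and without Q11 replicate 2 or 3, with adjusted p up to 0.114, in 4 settings that kept all libraries and with the Q11 libraries left out. Acat2 also has a near copy, Acat3 (97.7% identical over 1477 bases), which was at 0.733 to 1.81 TPM. A transcript of Acat2 matches Tcp1 (98.65% identical over 445 bases), which was at 361 to 404 TPM, above Acat2. Tcp1 had a log2 difference of 0.09 in M2 against Ctrl (limma adjusted p = 0.0572). The counts of Acat2 are uncertain to that extent, and whether it shared reads with Tcp1 was not tested. Hmgcs1 (ENSMUSG00000093930, chr13:119690379-119708260, plus strand), the gene with the sterol regulatory element core shown above, had 74.8, 75.2 and 72.9 TPM in M2 libraries, against 77.4, 78.0 and 76.3 TPM in Ctrl libraries. Its M2 values all lay below its Ctrl values, but the log2 difference of -0.06 (-0.12 to 0.01) did not pass (limma adjusted p = 0.244).

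Ggps1, which makes the geranylgeranyl chain attached to small GTPases, had 10.9, 11.5 and 10.7 TPM in M2 libraries, against 13.3, 12.1 and 14.2 TPM in Ctrl libraries. It lay lowest in the M2 libraries without overlap, with a log2 difference of -0.24 (-0.44 to -0.03) and a limma adjusted p of 0.140. The other 3 genes of the pathway, Pmvk, Idi1 and Fdps, had log2 differences of 0.05 to 0.13, with limma adjusted p of 0.166 or more. Pmvk, the kinase between Mvk and Mvd, had an interval of 0.01 to 0.26, and whether it differs from its neighbours was not tested.

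From squalene to cholesterol 4 of 11 genes rose, with a median log2 difference of 0.06. Sqle (ENSMUSG00000022351, chr15:59315077-59331192, plus strand), squalene epoxidase, had 287, 280.0 and 299.8 TPM in M2 libraries, against 257, 259.5 and 269 TPM in Ctrl libraries. This came to a log2 difference of 0.14 (0.07 to 0.21), with a limma adjusted p of 0.0171 (0.0291 with the shared reads separated). The groups did not overlap, and the call was lost without Ctrl replicate 1 or Ctrl replicate 2, with adjusted p up to 0.0644. It was also lost with quantile normalization, without the trend and with only the M2 and Ctrl libraries fitted, with limma adjusted p up to 0.0881.

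Lss (ENSMUSG00000033105, chr10:76531588-76557138, plus strand), which closes squalene epoxide into lanosterol, had 40.0, 37.7 and 40.2 TPM in M2 libraries, against 31.4, 34.1 and 32.6 TPM in Ctrl libraries. Its log2 difference was 0.26 (0.15 to 0.36), with a limma adjusted p of 0.00786 (0.0128 with the shared reads separated). This was the largest difference among the steps after squalene, and it held in all 20 alternative settings. Nsdhl (ENSMUSG00000031349, chrX:72918557-72958514, plus strand), which helps remove methyl groups from the sterol ring, had 85.2, 91.0 and 85.9 TPM in M2 libraries, against 76.2, 80.4 and 74.8 TPM in Ctrl libraries. On the log2 scale the difference was 0.18 (0.09 to 0.26), with a limma adjusted p of 0.0160 (0.0245 with the shared reads separated). The groups did not overlap, and the call was lost without Ctrl replicate 1 or Ctrl replicate 3, with adjusted p up to 0.0571. It was also lost with only the M2 and Ctrl libraries fitted (limma adjusted p = 0.0573).

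Dhcr7 (ENSMUSG00000058454, chr7:143823145-143848410, plus strand), the reductase that turns dehydrocholesterol into cholesterol, had 112, 107 and 108 TPM in M2 libraries, against 97.4, 96.1 and 97.3 TPM in Ctrl libraries. The log2 difference was 0.17 (0.11 to 0.23), with a limma adjusted p of 0.00492 (0.0141 with the shared reads separated). The other 7 genes, Fdft1, Cyp51, Tm7sf2, Msmo1, Hsd17b7, Ebp and Sc5d, had log2 differences of -0.13 to 0.09, with limma adjusted p of 0.210 or more. Among them Fdft1, squalene synthase, and Ebp, a sterol isomerase, were higher in every M2 library than in any Ctrl library, and Sc5d, a sterol desaturase, was lower. The margins of Fdft1 and Ebp were narrow. The lowest M2 and highest Ctrl values were 78.4 and 78.1 TPM for Fdft1, and 59.91 and 59.90 TPM for Ebp. Fdft1 overlaps Ctsb on the opposite strand, which was at 2667 to 3022 TPM, and the strand setting of the counting was not given, so its reads cannot be told apart from those of Ctsb there. Other genes of the set overlap expressed genes too. Among these, Tm7sf2 overlaps Vps51 (22.3 to 28.7 TPM) and Fdps overlaps Gm22935 (1.97 to 22.6 TPM), both on the same strand. On the opposite strand, Acss2 overlaps Gss (18.8 to 23.4 TPM) and Ggps1 overlaps Arid4b (4.46 to 6.26 TPM). Whether reads were shared there was not tested.

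**Figure D3:**
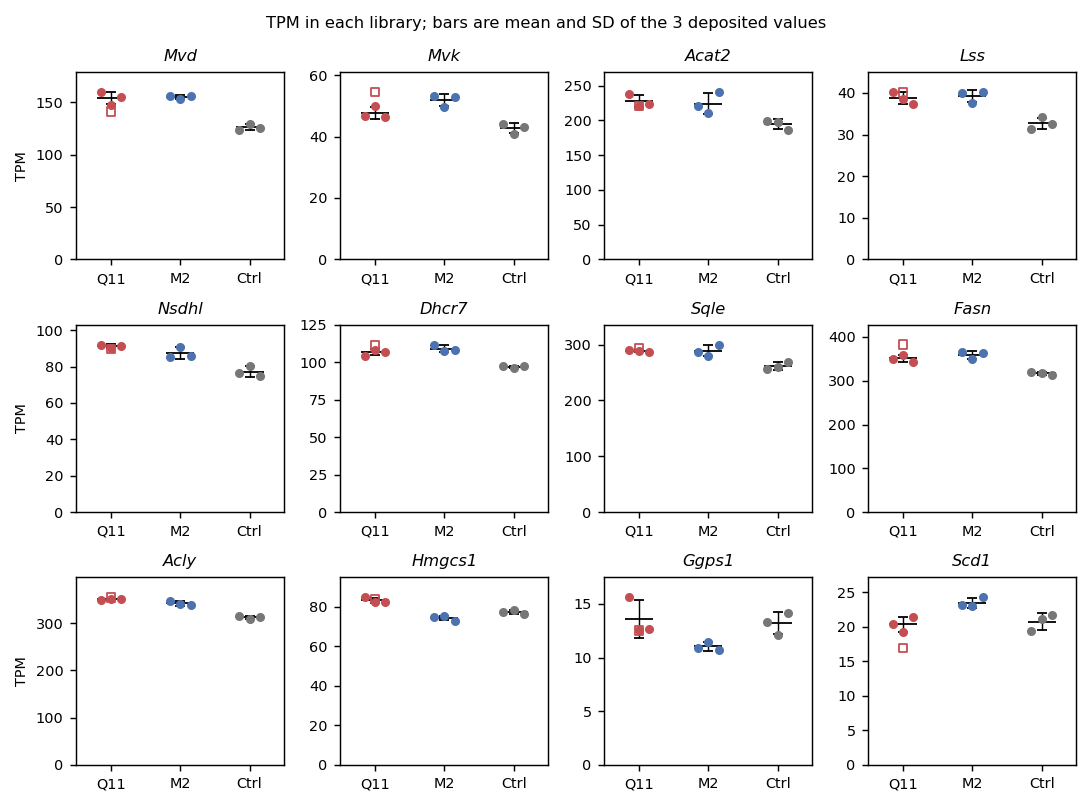
TPM (y axis, from 0) of 12 genes in each library, with Q11, M2 and Ctrl from left to right, filled points for deposited values, an open square for Q11 replicate 2 with the shared reads separated, and bars for the mean and SD of the 3 deposited values. In the 9 genes that rose in M2 cells all M2 points lie above all Ctrl points, while Hmgcs1 and Ggps1 lie lowest in M2 cells.

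None of the genes that control SREBP passed the test on log2(TPM + 1). Srebf2, the main activator of sterol genes, had 295, 271 and 286 TPM in M2 libraries, against 257, 259 and 269.7 TPM in Ctrl libraries. Its groups did not overlap, with a log2 difference of 0.12 (0.03 to 0.20) and a limma adjusted p of 0.0720, which did not pass. Limma-voom on recovered reads did call it (adjusted p = 0.0136, or 0.0369 when shared reads were removed). Srebf1, whose short form drives fatty acid genes, had 191, 169 and 177 TPM in M2 libraries, against 176, 167 and 186 TPM in Ctrl libraries. These groups overlapped, with a log2 difference of 0.02 (-0.10 to 0.14) and a limma adjusted p of 0.857.

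Insig1, an SREBP target that retains Scap, had 129.8, 142 and 139 TPM in M2 libraries, against 147, 144 and 137 TPM in Ctrl libraries (log2 difference -0.06, interval -0.15 to 0.04). Insig2, its paralog, had 47.9, 51.8 and 54.4 TPM in M2 libraries, against 49.0, 51.4 and 49.1 TPM in Ctrl libraries (0.04, -0.07 to 0.15). Both overlapped between groups. Scap, the escort protein, had 32.9, 32.3 and 31.5 TPM in M2 libraries, against 31.2, 30.9 and 31.1 TPM in Ctrl libraries (0.05, -0.05 to 0.15). Stard4, a carrier that moves cholesterol between membranes, had 53.8, 56.4 and 52.3 TPM in M2 libraries, against 51.5, 52.1 and 49.1 TPM in Ctrl libraries (0.09, -0.00 to 0.18). Scap and Stard4 were higher in every M2 library, without passing the test. The limma adjusted p of these 4 genes ran between 0.206 and 0.648.

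In fatty acid synthesis 2 of 8 genes rose, with a median log2 difference of 0.08. Acly (ENSMUSG00000020917, chr11:100476353-100528000, minus strand), which splits citrate into cytosolic acetyl-CoA, had 346, 341 and 337 TPM in M2 libraries, against 314, 309 and 313 TPM in Ctrl libraries. This came to a log2 difference of 0.13 (0.08 to 0.18), with a limma adjusted p of 0.00437 (0.0110 with the shared reads separated). Fasn (ENSMUSG00000025153, chr11:120805846-120824547, minus strand), the synthase that builds palmitate, had 365, 349 and 362 TPM in M2 libraries, against 319, 318 and 313 TPM in Ctrl libraries. Its log2 difference was 0.18 (0.12 to 0.24), with a limma adjusted p of 0.00343 (0.0284 with the shared reads separated). Neither gene overlapped between groups, and both calls held in all 20 alternative settings.

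Acaca, the carboxylase that supplies malonyl-CoA between these steps, had 33.1, 32.2 and 33.6 TPM in M2 libraries, against 31.9, 31.2 and 29.1 TPM in Ctrl libraries. It was higher in every M2 library, with a log2 difference of 0.10 (-0.01 to 0.21) and a limma adjusted p of 0.253. Scd1, a stearoyl-CoA desaturase, had 23.1, 22.96 and 24.2 TPM in M2 libraries, against 19.3, 21.2 and 21.6 TPM in Ctrl libraries, also without overlap (0.17, 0.04 to 0.30, limma adjusted p = 0.0964). Scd2, its far more abundant paralog here, had 1842, 1762 and 1892 TPM in M2 libraries, against 1777, 1713 and 1795 TPM in Ctrl libraries, which overlapped (0.06, -0.02 to 0.13, limma adjusted p = 0.307). Scd2 and Scd1 are 95.5% identical over 623 bases, so part of the reads of Scd1 is uncertain. Acss2 and the polyunsaturated fatty acid desaturases Fads1 and Fads2 had log2 differences of -0.08 to 0.00 (limma adjusted p of 0.385 or more).

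**Figure D4:**
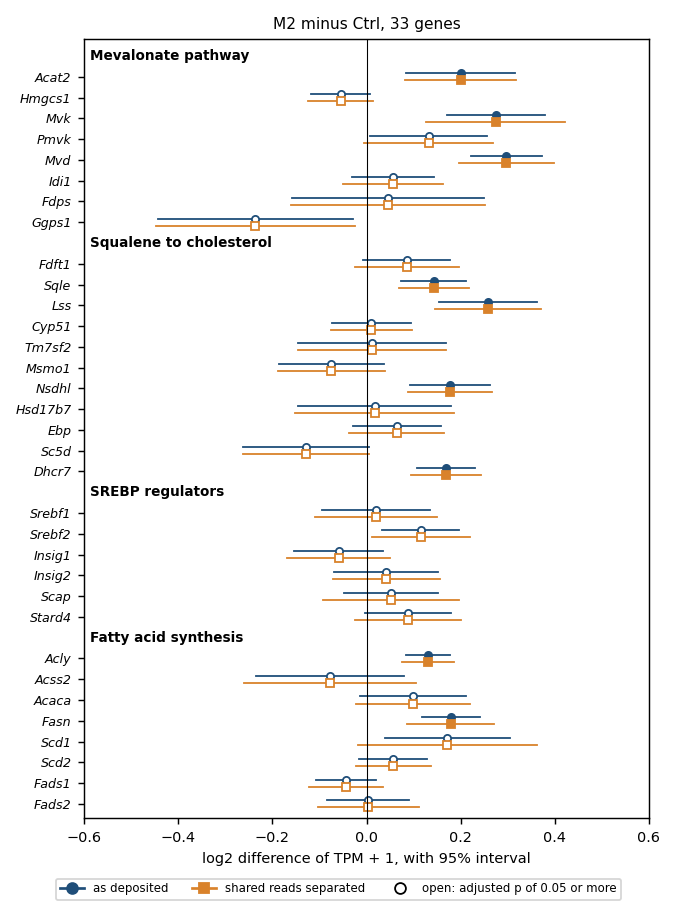
Log2 difference of TPM + 1, M2 minus Ctrl, with its 95% interval (x axis) for the 33 genes grouped by role, as deposited (circles) and with the shared reads separated (squares), filled where the adjusted p was under 0.05. The filled points are the same 9 genes in both, between 0.13 and 0.30, and no SREBP control gene is filled.

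Other genes of the same pathways were counted by list, beside 6.88% of all genes that rose and 5.75% that fell. The risen share was 8.33% in sterol and isoprenoid metabolism, 10% in SREBP activation and degradation, 15.4% in fatty acid synthesis and elongation and 25% in paralogs. Their median log2 differences were 0.0019, -0.011, 0.0275 and 0.09, in the same order. Of 12 tested genes of sterol and isoprenoid metabolism, 1 rose and none fell: Npc1, which exports cholesterol from lysosomes, had 56.0, 52.7 and 59.6 TPM in M2 libraries, against 44.8, 47.7 and 45.8 TPM in Ctrl libraries (log2 difference 0.28, limma adjusted p = 0.00601). Of 10 tested genes of SREBP activation and degradation, 1 rose, the ubiquitin ligase gene Syvn1 (0.17, limma adjusted p = 0.0378, and 0.0863 separated). Of 13 tested genes of fatty acid synthesis and elongation, 2 rose and 2 fell. The mitochondrial citrate carrier gene Slc25a1 rose (0.17, limma adjusted p = 0.00985) and so did the elongase gene Elovl1 (0.13, limma adjusted p = 0.0173, and 0.104 separated). Me1, malic enzyme, a source of NADPH, fell (-0.23, limma adjusted p = 0.00438), as did the acyl-CoA synthetase gene Acsl4 (-0.20, limma adjusted p = 0.0277). Of 4 tested paralogs, the mitochondrial thiolase gene Acat1 rose (0.20, limma adjusted p = 0.00736).

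The question of the Q11 against M2 comparison was what Q11 adds to the cytokines. None of the 33 genes passed the threshold, nor did any of the 14207 genes tested (0% called). At an unadjusted p under 0.05 there were 6 of the set by limma (4 with the shared reads separated), beside 11.4% of all genes (1620 genes) and 8.06% with the shared reads separated. Limma-voom on recovered reads called 2 of all genes and 0 of the set. Log2 differences of the set ran from -0.20 to 0.27 with a median of 0.01, and the half-widths of their 95% intervals had a median of 0.09 and reached 0.21. With the shared reads separated the differences ran from -0.25 to 0.27 with a median of 0.02, and the half-widths had a median of 0.11. Every Q11 library was above every M2 library in 3 genes, Hmgcs1, Ggps1 and Acly (9.09%, against 9.18% of all genes), and below in 2, Scd1 and Ebp (6.06%, against 8.43%). With the shared reads separated the same 3 genes were above (9.09%, against 7.52% of all genes), but only Scd1 was below (3.03%, against 4.99%), since Q11 replicate 2 then had 61.3 TPM of Ebp and 2 M2 libraries had 59.9 TPM. As deposited, the highest Ebp value in Q11 libraries was 59.85 TPM and the lowest in M2 libraries 59.91 TPM.

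The smallest unadjusted p belonged to Hmgcs1. It had 84.7, 82.5 and 82.2 TPM in Q11 libraries, against 74.8, 75.2 and 72.9 TPM in M2 libraries, and Q11 replicate 2 was at 83.8 TPM with the shared reads separated. The groups lay apart, with a log2 difference of 0.16 (0.10 to 0.22), an unadjusted p of 0.000251 and a limma adjusted p of 0.240, and 0.17 with an adjusted p of 0.571 with the shared reads separated. Ggps1 had 15.6, 12.5 and 12.7 TPM in Q11 libraries, against 10.9, 11.5 and 10.7 TPM in M2 libraries. Q11 replicate 1 stood above the other Q11 libraries, and the log2 difference was 0.27 (0.07 to 0.48, limma adjusted p = 0.361, or 0.580 separated).

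Scd1 had 20.4, 19.2 and 21.4 TPM in Q11 libraries, against 23.1, 22.96 and 24.2 TPM in M2 libraries, with Q11 replicate 2 at 16.9 TPM once the shared reads were separated. All Q11 values were below all M2 values, with a log2 difference of -0.20 (-0.33 to -0.06, limma adjusted p = 0.328) and -0.25 (adjusted p = 0.580) with the shared reads separated. Mvk had 46.6, 49.9 and 46.3 TPM in Q11 libraries, against 53.2, 49.6 and 52.7 TPM in M2 libraries. These groups overlapped, and with the shared reads separated Q11 replicate 2 stood at 54.5 TPM, above every M2 library. The log2 difference was -0.12 (-0.22 to -0.02, limma adjusted p = 0.384), and -0.08 (-0.23 to 0.07, adjusted p = 0.775) with the shared reads separated.

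For the other enzymes that rose in M2 cells the intervals of Q11 minus M2 all held 0, and they are given here with the shared reads separated. They were -0.13 to 0.07 for Mvd, -0.07 to 0.08 for Sqle, -0.11 to 0.11 for Lss, -0.10 to 0.05 for Dhcr7 and -0.10 to 0.09 for Fasn. Those of Nsdhl (-0.03 to 0.15), Acly (-0.01 to 0.09) and Acat2 (-0.10 to 0.14) reached further above 0 than below. The SREBP control genes had differences of -0.06 (Srebf2) to 0.06 (Insig1) as deposited and -0.03 (Srebf2) to 0.09 (Insig1) separated, each with an interval across 0. None of the other lists held a gene past the threshold in this comparison.

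The Q11 against Ctrl comparison asked how cells with Q11 and both cytokines stood against untreated cells. In Q11 cells 10 of the 33 genes rose and none fell (30.3%, against 5.19% of all genes risen and 5.53% fallen). They were the mevalonate genes Mvd, Acat2, Idi1 and Hmgcs1, the sterol genes Nsdhl, Lss, Dhcr7 and Sqle, and the fatty acid genes Acly and Fasn. With the shared reads separated 8 rose, against 3.96% of all genes, and 5 rose without Q11 replicate 2 or without Q11 replicate 3. The M2 and Q11 comparisons share the Ctrl libraries, and 8 genes were called in both, while Mvk was called in M2 cells and Hmgcs1 and Idi1 in Q11 cells. The median log2 difference of the set was 0.06, against 0.0035 for all genes (0.08 against 0.0094 separated), and 30 of the 33 genes were above 0 either way. Every Q11 library was above every Ctrl library in 14 genes (42.4%, against 16.3% of all genes) and below in 2 (6.06%, against 15.8%). With the shared reads separated it was above in 13 (39.4%, against 14.4%) and below in 0 (0%, against 12.3%).

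Mvd had 159.9, 148 and 155 TPM in Q11 libraries, against 123, 129 and 126 TPM in Ctrl libraries (log2 difference 0.29, limma adjusted p = 0.00091, and 0.0070 separated). Lss had 40.2, 38.5 and 37.4 TPM in Q11 libraries, against 31.4, 34.1 and 32.6 TPM in Ctrl libraries (0.24, limma adjusted p = 0.0127, and 0.0144 separated). Nsdhl had 92.0, 89.95 and 91.3 TPM in Q11 libraries, against 76.2, 80.4 and 74.8 TPM in Ctrl libraries (0.24, limma adjusted p = 0.00444, and 0.00700 separated). These 3 genes, each without overlap, had the largest differences of the set. Acly had 349, 350.5 and 350.6 TPM in Q11 libraries, against 314, 309 and 313 TPM in Ctrl libraries (0.17, limma adjusted p = 0.00137, and 0.00296 separated). Fasn had 351, 359.6 and 343 TPM in Q11 libraries, against 319, 318 and 313 TPM in Ctrl libraries (0.15, limma adjusted p = 0.0102, and 0.0323 separated). Mvd, Lss, Nsdhl, Acly and Fasn were called in all 20 alternative settings.

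Hmgcs1 had 84.7, 82.5 and 82.2 TPM in Q11 libraries, against 77.4, 78.0 and 76.3 TPM in Ctrl libraries. Its log2 difference of 0.11 passed as deposited (limma adjusted p = 0.0413) but not with the shared reads separated (0.0560). Idi1, the isomerase of isopentenyl diphosphate, stood at 67.5, 70.0 and 67.7 TPM in Q11 libraries, against 61.4, 62.3 and 60.8 TPM in Ctrl libraries, and gave a like result (0.15, limma adjusted p = 0.0372, and 0.0559 separated). Both calls were lost without Q11 replicate 1, 2 or 3 and without any of the Ctrl libraries, with adjusted p up to 0.122 for Hmgcs1 and 0.141 for Idi1. That of Hmgcs1 was also lost without M2 replicate 1, with median scaling, without the trend and with the replicate number as a block. Limma-voom on recovered reads did not call Hmgcs1 (adjusted p = 0.0659, and 0.1265 after the shared reads were removed). The call of Hmgcs1 held in 7 of 20 alternative settings and that of Idi1 in 11. Acat2 (0.22, limma adjusted p = 0.0256, and 0.0333 separated) was lost without any of the 6 libraries compared, with adjusted p up to 0.0860. Sqle (0.14, limma adjusted p = 0.0214, and 0.0271 separated) was lost without any of the Q11 libraries and without Ctrl replicate 1 or 2, with adjusted p up to 0.0773. Dhcr7 (0.14, limma adjusted p = 0.0150, and 0.0280 separated) was lost without Q11 replicate 2 or 3 and without Ctrl replicate 2, with adjusted p up to 0.0737. Over the 20 settings Acat2 was called in 11, Sqle in 14 and Dhcr7 in 16.

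Mvk, which rose in M2 cells, had a log2 difference of 0.15 (0.05 to 0.26) in Q11 cells with a limma adjusted p of 0.0677 (separated, a difference of 0.20 with an adjusted p of 0.116), and whether that differs from M2 is the Q11 against M2 test given above. Among the SREBP control genes Stard4 came nearest, with 56.6, 54.8 and 57.7 TPM in Q11 libraries, against 51.5, 52.1 and 49.1 TPM in Ctrl libraries (0.14, limma adjusted p = 0.0531, and 0.203 separated, against 0.0326 by limma-voom and 0.185 by limma-voom after the shared reads were removed). It did not overlap as deposited, but Q11 replicate 2 lay within the Ctrl range at 52.1 TPM with the shared reads separated. Srebf2 had 269.8, 279 and 268 TPM in Q11 libraries, against 257, 259 and 269.7 TPM in Ctrl libraries, which overlapped (0.06, limma adjusted p = 0.399, and 0.363 separated). Acss2 and Fads1 were lower in every Q11 library than in any Ctrl library without passing the test (limma adjusted p = 0.163 for Acss2 and 0.330 for Fads1), and Acss2 alone of the set was lower at an unadjusted p under 0.05. Neither held with the shared reads separated, where Q11 replicate 2 entered the Ctrl range in Acss2 (8.97 TPM) and stood above it in Fads1 (228 TPM), and the unadjusted p of Acss2 was 0.124. As deposited, 13 of the 33 genes had a limma unadjusted p under 0.05, beside 3392 of all 14207 genes. Outside the set Npc1 (0.24, limma adjusted p = 0.0127, and 0.0173 separated), Elovl1 (0.18, limma adjusted p = 0.00475, and 0.0203 separated) and Acat1 (0.24, limma adjusted p = 0.00315, and 0.00521 separated) rose, and Npc2, the lysosomal partner of Npc1, fell (-0.21, limma adjusted p = 0.00555, and 0.00797 separated). The risen share was 8.33% of 12 sterol and isoprenoid genes, 7.69% of 13 fatty acid genes and 25% of 4 paralogs, against 5.19% of all genes. Of 10 genes of SREBP activation and degradation 0 rose.

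**Figure D5:**
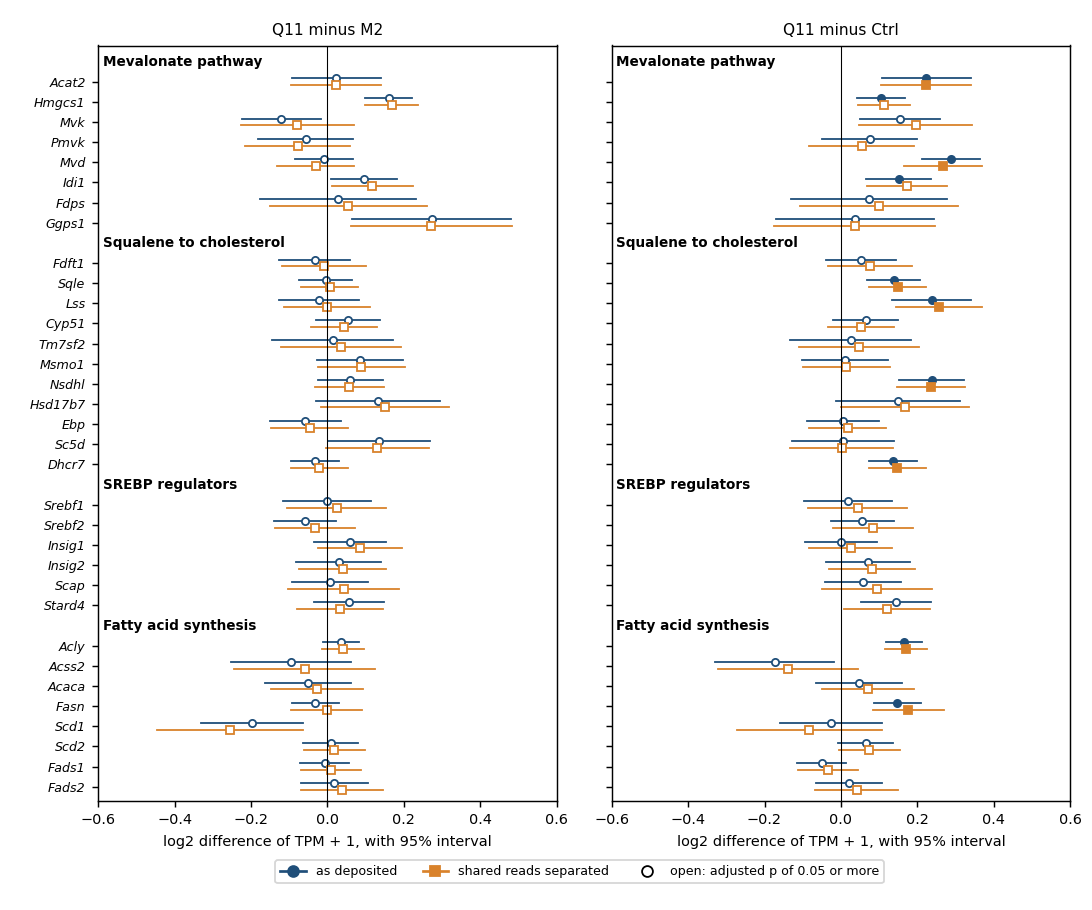
Log2 difference of TPM + 1 with its 95% interval (x axis) for the 33 genes, Q11 minus M2 on the left and Q11 minus Ctrl on the right, as deposited (circles) and with the shared reads separated (squares), filled where the adjusted p was under 0.05. No point is filled on the left, and 10 circles but 8 squares are filled on the right.

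By role, 4 of 8 mevalonate genes rose in Q11 cells over Ctrl cells, but only 2 of 8 once the shared reads were separated. In either setting 4 of 11 genes from squalene to cholesterol, 0 of 6 control genes and 2 of 8 fatty acid genes rose. Beside these counts, 5.19% of all genes rose, or 3.96% after the separation. Summed TPM of the mevalonate genes was 692 to 726 in Q11 libraries and 685 to 718 in M2 libraries, against 612 to 633 in Ctrl libraries. That of the squalene to cholesterol genes was 1034 to 1044 in Q11 libraries and 1019 to 1025 in M2 libraries, against 949 to 982 in Ctrl libraries. Neither sum overlapped between the cytokine-treated groups and Ctrl. Summed TPM of the fatty acid genes, which Scd2 dominates, was 2991 to 3062 in Q11 libraries and 2932 to 3089 in M2 libraries, against 2825 to 2915 in Ctrl libraries, with its lowest M2 value just above the highest Ctrl value. The control genes summed to 724 to 747 TPM in Q11 libraries and 722 to 750.5 TPM in M2 libraries, against 706 to 722 TPM in Ctrl libraries. With the shared reads separated Q11 replicate 2 summed to 691 TPM of mevalonate genes, 1060.1 TPM of squalene to cholesterol genes, 3144 TPM of fatty acid genes and 782 TPM of control genes.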

How the data were processed

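RNA was measured in 9 libraries of J774A.1 cells, 3 each of Q11, M2 and Ctrl, made with a NEBNext Ultra poly-A kit, per the labels' protocols. Alignment and assembly tools were HISAT2 (2.0.5) with StringTie (1.3.3b) on mouse GRCm38, per the submitters' processing notes, and the annotation and counting settings are not stated there. As deposited by the authors, the table holds TPM for 26157 genes, and 25573 IDs (97.8%) were matched to GENCODE release 21 of the mouse annotation (M21) for lengths and places. TPM times exon length gave whole reads, within 0.1 read, for 98.8% to 99.1% of values up to 20 reads, which gave the depths. The 14207 genes that reached 1 TPM in 3 or more libraries were tested as log2(TPM + 1) with limma 3.58.1 in R 4.3.3 (lmFit and eBayes with trend, 1 mean per group, all 9 libraries, 6 residual and a median of 2.85 prior degrees of freedom), two-sided, adjusted by Benjamini-Hochberg over all genes at a threshold of 0.05. With the shared reads separated, 13998 genes were tested. The script was tested on simulated data. Tables were handled in Python 3.11.15 (pandas 2.3.3, numpy 2.4.6), with figures from matplotlib 3.10.9.

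The members and gene lists were chosen with earlier results of these data known. Values in every library are given for up to 4 called genes per list, 13 genes given whatever their values, and the 4 smallest p-values in Q11 against M2; the rest by range and count. Near copies were sought among GENCODE transcripts at 90% identity over at least 400 bases. A count of 0 reads can stand for up to 3 reads, for counting error only. Replicate numbers did not pair the samples. Alternatives were other pseudocounts, filters, scalings, fits, recovered reads, separated reads and leaving out each library.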

Additional observations from a re-analysis of the deposited data

How the results depend on the processing

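Over 20 alternative settings no called gene changed direction. Acly, Dhcr7, Fasn, Lss, Mvd and Mvk kept their call in M2 against Ctrl in all of them, Nsdhl in 17, Sqle in 15 and Acat2 in 8. For single genes of the set, M2 against Ctrl had 20 results that no longer passed and 4 that newly passed out of 660, Q11 against Ctrl 41 and 5, and Q11 against M2 none. All genes called in Q11 against M2 were 3 without a filter, 2 without the trend and 2 by limma-voom on recovered reads, against 0, and none was in the set. The genes of the set risen in Q11 against Ctrl were 5 without the trend, against 10. With only the groups compared, 1054 genes were called in M2 against Ctrl, against 1794, and 6 genes of the set rose, against 9. The causes were not tested. Leaving out 1 library gave 1139 to 1651 genes called in M2 against Ctrl, 0 to 2 in Q11 against M2 and 776 to 1613 in Q11 against Ctrl (1524 with all). The set then had 6 to 10 risen genes in M2 against Ctrl and 5 to 11 in Q11 against Ctrl. The lowest counts in Q11 against Ctrl came without Q11 replicate 2 (798 genes) or Q11 replicate 3 (776 genes), and in M2 against Ctrl without Ctrl replicate 1 (1139 genes) or 3 (1161 genes). Same-numbered libraries did not deviate together (correlations of -0.03 to 0.04), so the numbers name no pairs. With the replicate number as a block, 8 genes of the set rose in M2 against Ctrl and 8 in Q11 against Ctrl, with 1335, 0 and 1086 genes called in M2 against Ctrl, Q11 against M2 and Q11 against Ctrl. Limma-voom with the shared reads separated was chosen after seeing the data. Median scaling moved libraries by -0.0105 to 0.0093 on the log2 scale. Depth limits Fdps, Ggps1 and Acss2 most, with 184, 242 and 387 reads in their lowest library.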

Other observations

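Scd3, a paralog of Scd1, was low in every library. It had 0.638, 0.444 and 0.563 TPM in Q11 libraries (0.316 TPM in Q11 replicate 2 with the shared reads separated) and 0.336, 0.12 and 0.648 TPM in M2 libraries, against 0.522, 0.390 and 0.749 TPM in Ctrl libraries, and these groups overlapped.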
